A study of Mus musculus with 6 samples.

Results

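The genes that make and load miRNAs were followed in RNA-seq counts from the rostral telencephalic primordium of mouse embryos at E11.5. The 10 members were taken by gene name: Drosha, Dgcr8, Xpo5, Dicer1, Tarbp2, Prkra and the Argonaute genes Ago1, Ago2, Ago3 and Ago4, out of 55471 gene identifiers in the files. All 10 had enough counts to be tested. Both groups carried floxed Dicer alleles. The 3 control samples were Dicer F/F without Cre, although their genotype label reads WT, and the 3 Rx-Dicer samples were RxCre-Dicer F/F, in which Cre is driven by regulatory sequences of Rx, a gene of the early anterior neural plate. The Rx-Cre line was kept in a CD1 background and the floxed line in C57BL/6. Where Rx-Cre is not active, cells keep an intact Dicer gene, and reads were counted over the whole gene, so Dicer1 transcripts that lack the floxed segment were counted as well. Labels do not say whether a sample is 1 embryo or a pool, so p-values measure the spread between these samples.

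miRNAs are copied as long primary transcripts. In the nucleus the RNase DROSHA and its RNA-binding partner DGCR8, together called Microprocessor, cut out a hairpin that exportin 5 (Xpo5) carries to the cytoplasm. There DICER, with its double-stranded RNA-binding partners TARBP2 (TRBP) and PRKRA (PACT), trims the hairpin to a short duplex, and 1 strand is loaded into an Argonaute protein, which it guides to matching mRNAs. AGO2 is the Argonaute known for cutting its targets. The let-7 family is an abundant miRNA family of differentiating tissues, and the LIN28 proteins bind its precursors and block their processing by DICER.

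The coding sequence of Dicer1 and the 3′ UTRs of the Lin28 and Trim71 genes are described as let-7 targets, so matches to the let-7 seed are shown for the members. The 8 mature let-7 miRNAs read from RefSeq (GRCm38.p6) shared the seed, bases 2 to 8, which is in capitals in the examples here.
mmu-let-7a-5p: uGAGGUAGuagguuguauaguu
mmu-let-7d-5p: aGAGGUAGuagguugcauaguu
mmu-let-7i-5p: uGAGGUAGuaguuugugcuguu

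The complement of this seed, the 7-base word CTACCTC on the sense strand, was looked for in the longest coding transcript of each gene (GENCODE vM21, GRCm38), along with the 8-base word CTACCTCA that holds it. Dicer1 held 4 of these words in its coding sequence, in exons 16, 21, 21 and 24 of 27, and 3 of them were the 8-base word. They are shown with the word in capitals because Dicer1 is both the targeted gene and a carrier of let-7 seed matches.
Dicer1 exon 16, chr12:104706560-104706566, minus strand: ctactgtgttCTACCTCttaa
Dicer1 exon 21, chr12:104702804-104702811, minus strand: gtacaaccaaCTACCTCAtatc
Dicer1 exon 21, chr12:104702696-104702703, minus strand: gctaacacatCTACCTCAgatg
Dicer1 exon 24, chr12:104694696-104694703, minus strand: cgattttggaCTACCTCAtaac

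Among 14123 coding genes tested, 14.7% held the 7-base word in the coding sequence and 5.66% the 8-base word. Dicer1 was 1 of 8 genes (0.0566%) with at least 3 of the 8-base word there, and Xrn1, an exonuclease of the wider pathway, was another. Their coding sequences have 5721 and 5160 bases, and these shares were not matched for coding length. Ago2 and Ago3 held the 8-base word in very long 3′ UTRs, of 11064 and 12742 bases.
Ago2 3′ UTR, chr15:73097982-73097989, minus strand: caatgtggatCTACCTCAgtta
Ago3 3′ UTR, chr4:126335040-126335047, minus strand: ctgccctcacCTACCTCAccaa

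Over all genes 3.70% had the 8-base word in the 3′ UTR, but 25.0% of genes did when the 3′ UTR was about as long as that of Ago2 (60 genes) or of Ago3 (36 genes). Tarbp2 had 1 word of 7 bases in its 3′ UTR, and Xpo5 had 2 and Ago3 had 1 in the coding sequence. In all, 5 of 10 members held a word in 1 of these regions, and Drosha, Dgcr8, Prkra, Ago1 and Ago4 held none. A match is a string of letters and not a measured site.

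**Figure D1:**
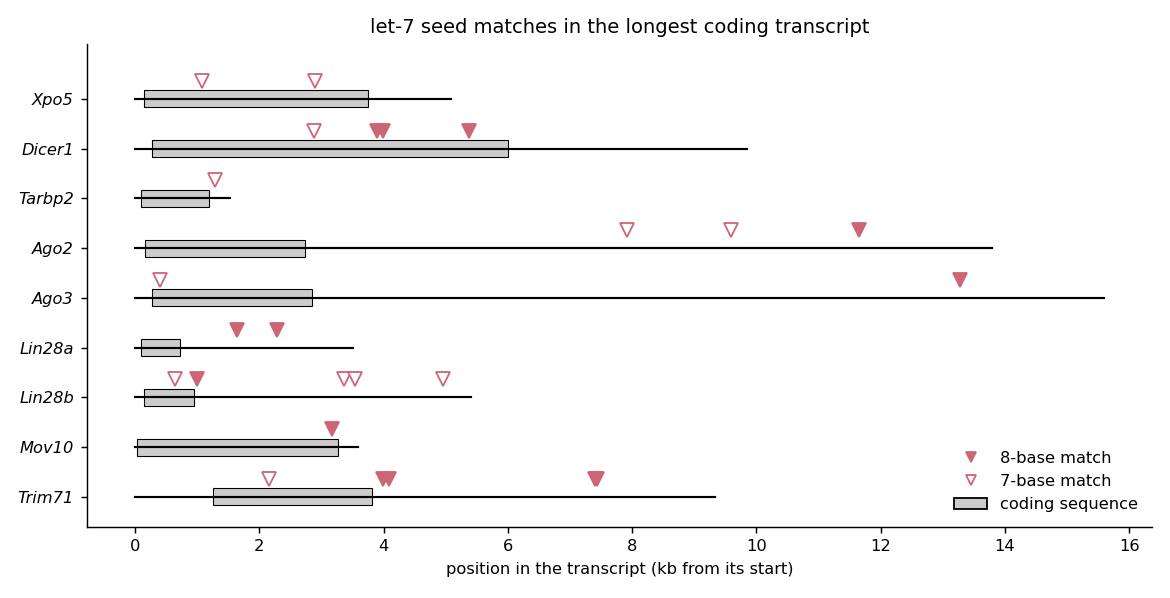
Positions of let-7 seed matches in the longest coding transcript of the 5 members that hold any and of 4 named pathway genes, in kb from the transcript start. Lines are transcripts, grey boxes coding sequences, filled triangles 8-base and open triangles 7-base matches. The 4 matches of Dicer1 lie in its coding sequence, and the 8-base matches of Ago2, Ago3, Lin28a, Lin28b and Trim71 lie after it.

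The libraries held 34471501 to 44614586 counts on genes in controls and 40006887 to 48373468 in Rx-Dicer, and the 10 members had between 364 and 19619 raw counts per library. Markers of telencephalic neuroepithelium summed to 2376 to 2733 CPM (counts scaled to the total on genes) in controls and 2137 to 2484 in Rx-Dicer, and of its 8 genes Six3 was called higher (log2 fold change 1.27, DESeq2 adjusted p = 6.27e-06) and Pax6 lower (-0.43, DESeq2 adjusted p = 0.0127). Some markers of other cells were called between genotypes as well. The 6 hypothalamic and optic field markers summed to 9.09 to 14.7 CPM in controls and 33.8 to 66.6 in Rx-Dicer, and 2 of the 5 tested were called higher, Vax1 and Otp. Much of the Rx-Dicer sum was Nkx2-1, which was not called (DESeq2 adjusted p = 0.0549), and without it the sums were 7.89 to 10.1 CPM in controls and 15.4 to 20.4 in Rx-Dicer. The 5 microglia and macrophage markers summed to 15.3 to 20.8 CPM in controls and 19.3 to 57.9 in Rx-Dicer, with 2 called higher, Csf1r and Cx3cr1. For each of these 5 markers the values of the groups overlapped. No marker of either list was at 0 in every library, and none of the neuron, mesenchyme, endothelium and erythroid markers was called. These calls are by DESeq2, and edgeR's quasi-likelihood test called none of the markers of any list. The part of these cells in the results that follow was not tested, and in bulk tissue fewer cells of a type and less RNA per cell cannot be told apart.

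Dicer1 is the gene targeted by the Cre, but its count over the whole gene holds transcripts without the floxed segment too and so does not check the genotype labels. Dicer1 (ENSMUSG00000041415, chr12:104687742-104751952, minus strand) had 6355, 7070 and 6270 normalised counts in controls, against 4777, 7002 and 4644 in Rx-Dicer. Normalised counts are read counts divided by a size factor for each library. In 2 of 3 Rx-Dicer libraries the value was below all controls, and in replicate 2 of the group (Rx-Dicer 2) it was level with the highest control. The log2 fold change was -0.26 ± 0.17 (SE, n = 3 per genotype; DESeq2 adjusted p = 0.567), with a 95% interval from -0.59 to 0.067, which is 0.664 to 1.05 times the control level. The difference was thus within the spread between replicates. Without Rx-Dicer 2 the log2 fold change was -0.47 ± 0.11 and passed the test (DESeq2 adjusted p = 8.80e-04), in a fit that called 3.78% of 16819 genes tested. Rx-Dicer 2 held the highest Dicer1 value of its group, so this pass follows from which library was left out and is no evidence of a difference. With any 1 of the other 5 libraries left out, the DESeq2 adjusted p was 0.603 to 0.923. Rx-Dicer 2 also had the largest share of reads outside annotated genes, 13.5% against 8.34 to 10.7% in the other 5, the highest hypothalamic marker sum, 66.6 CPM, and the lowest microglia marker sum of its group, 19.3 CPM. With a correction for gene length and GC content, Dicer1 was at -0.40 ± 0.16 (DESeq2 adjusted p = 0.184).

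Lin28a, Lin28b, Trim71 and Mov10, called higher in Rx-Dicer, had values in Rx-Dicer 2 like those of its group. For Lin28a this was 3365 normalised counts against at most 715 in controls. Csf1r and Cx3cr1, also called higher, were within the control range in Rx-Dicer 2. They had 354 and 282 normalised counts there, against 275 to 385 and 194 to 283 in controls. As Rx-Dicer 2 stood apart for Dicer1, the other members were also fitted without it. Their log2 fold changes were then 0.021 for Drosha, -0.043 for Dgcr8, 0.016 for Xpo5, -0.044 for Tarbp2 and 0.12 for Prkra. For the Argonautes they were 0.0073 for Ago1, 0.42 for Ago2, 0.13 for Ago3 and -0.16 for Ago4. Apart from Dicer1 itself, no member was called in that fit.

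The genes whose values over the 6 libraries were most like those of Dicer1 were Mid1, Clcn1, Ebf4, Ccdc30 and Kyat1. Likeness was the root mean square difference of log2 normalised counts from the control mean, over 12895 genes, and ran from 0.042 for Mid1 to 0.087 for Kyat1. Mid1, which encodes a microtubule-bound ubiquitin ligase, had 1954, 2007 and 1840 normalised counts in controls, against 1375, 2044 and 1418 in Rx-Dicer. The 5 were chosen for sharing the pattern of Dicer1, in which Rx-Dicer 2 is above the other Rx-Dicer libraries, so that they share it is no result.

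Over the 10 members, 0 were called higher and 0 lower at a DESeq2 adjusted p under 0.05 with a log2 fold change beyond 0.32 in size, where 2.93% of 17127 genes tested were called (1.75% higher and 1.18% lower). At an unadjusted p under 0.05, 1 member of 10 stood out by DESeq2 and 1 by edgeR, against 13.1% and 12.9% of all genes. edgeR's quasi-likelihood test called 0 members and 8 of 17954 genes (0.0446%). The median absolute log2 fold change was 0.037 over the members, 0.075 over 49 further genes of the pathway and 0.16 over all genes tested. All genes tested include some with few counts and wide errors, such as Wnt3 at 11.2 to 62.3 normalised counts (SE 0.64). These medians are thus not matched for level. The intervals bound what was measured: for Drosha, Dgcr8, Xpo5, Prkra and Ago1 the 95% interval lay within 0.32 of 0 on both sides of the log2 scale, while those of Dicer1, Tarbp2, Ago2, Ago3 and Ago4 reached beyond it.

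**Figure D2:**
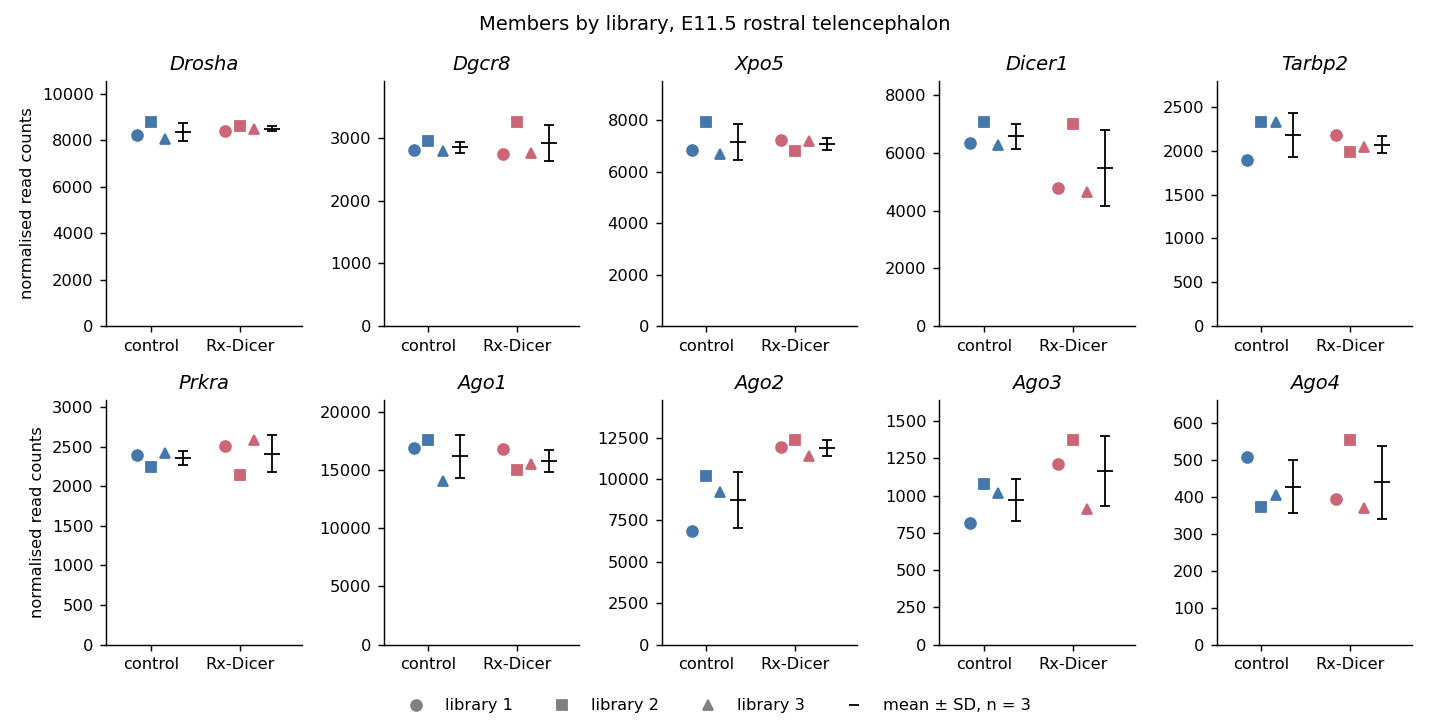
Normalised read counts of the 10 members in each library, control in blue and Rx-Dicer in red, with the mean and SD of 3 libraries in black. Each vertical axis starts at 0. Only for Ago2 do all 3 Rx-Dicer values lie above all 3 controls, and for Dicer1 the square of Rx-Dicer 2 sits among the controls.

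For the nuclear cleavage genes no difference was detectable, and the intervals were narrow. Drosha (ENSMUSG00000022191, chr15:12824815-12935291, plus strand), the nuclear RNase, had 8219, 8797 and 8071 normalised counts in controls, against 8415, 8610 and 8503 in Rx-Dicer. All 3 Rx-Dicer values fell inside the control range. The log2 fold change of Drosha was 0.025 ± 0.10 (n = 3 per genotype; DESeq2 adjusted p = 0.974), and the interval allowed 0.886 to 1.17 times the control level.

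Dgcr8 (ENSMUSG00000022718, chr16:18253948-18289246, minus strand), the partner that holds the hairpin for DROSHA, had 2809, 2952 and 2797 in controls, against 2755, 3260 and 2766 in Rx-Dicer. The groups overlapped, and the highest value came from Rx-Dicer 2. Its log2 fold change was 0.037 ± 0.12 (n = 3 per genotype; DESeq2 adjusted p = 0.968).

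Dgcr8 is also cut by the complex it belongs to, since hairpins in its own mRNA are Microprocessor substrates. The annotation places 2 hairpins on its sense strand, Mir1306 in the coding sequence (chr16:18284239-18284317) and the miR-3618 hairpin in the 5′ UTR (chr16:18284550-18284637). Their mature strands are shown with the seed in capitals.
mmu-miR-1306-3p: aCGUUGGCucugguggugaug
mmu-miR-3618-3p: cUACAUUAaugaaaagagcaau

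Both hairpin genes had 0 counts in all 6 libraries. Reads over them overlap 2 genes and were set apart as ambiguous by the counting, as for 494 exon bases of Dgcr8 in all (6.42% of its exon length), so a 0 here measures the counting rule and not the hairpins. The same applied to 72 exon bases of Drosha (1.21%), and no exon of the other 8 members was shared.

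For nuclear export no difference was detectable either. Xpo5 (ENSMUSG00000067150, chr17:46202782-46243598, plus strand), the exportin of precursor hairpins, had 6825, 7939 and 6688 normalised counts in controls, against 7236, 6805 and 7175 in Rx-Dicer. The groups overlapped and control 2 was highest. Between genotypes it differed by -0.016 ± 0.12 on the log2 scale (n = 3 per genotype; DESeq2 adjusted p = 0.987), with an interval from 0.844 to 1.16 times the control level.

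The partners of DICER were measured at lower counts. Tarbp2 (ENSMUSG00000023051, chr15:102518192-102523676, plus strand) had 1892, 2329 and 2330 in controls, against 2184, 1989 and 2039 in Rx-Dicer. Control 1 was the lowest value and the other controls the highest, so the Rx-Dicer values lay inside the control range. Its log2 fold change was -0.077 ± 0.13 (n = 3 per genotype; DESeq2 adjusted p = 0.920), and it was -0.17 without control 1 and -0.028 without control 2 or control 3. Prkra (ENSMUSG00000002731, chr2:76629898-76648015, minus strand) had 2393, 2249 and 2419 in controls, against 2504, 2145 and 2579 in Rx-Dicer. Here the Rx-Dicer values lay on either side of the controls. The fitted log2 fold change of Prkra was 0.034 ± 0.12 (n = 3 per genotype; DESeq2 adjusted p = 0.971).

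Among the Argonautes, Ago2 had the largest difference of the 10 members. Ago2 (ENSMUSG00000036698, chr15:73095844-73184935, minus strand) had 6861, 10167 and 9204 normalised counts in controls, against 11965, 12344 and 11376 in Rx-Dicer. All 3 Rx-Dicer values lay above all 3 controls, and control 1 was the lowest of the 6. Of all genes tested, 8.55% had their Rx-Dicer values above all controls. The log2 fold change of Ago2 was 0.44 ± 0.15 (n = 3 per genotype), 1.36 times the control level with a 95% interval from 1.10 to 1.67. Its DESeq2 adjusted p of 0.0914 (unadjusted 0.00371) missed the threshold, as did the edgeR adjusted p of 0.236 (unadjusted 0.0100).

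At an adjusted p under 0.1, Ago2 was the 1 member called, where 4.32% of all genes tested were. Single libraries decided its call. Without control 2 the log2 fold change was 0.57 ± 0.16 and passed the test (DESeq2 adjusted p = 0.0364, in a fit that called 1.53% of 18667 genes), and without control 1, the lowest value, it was 0.30 ± 0.11 (DESeq2 adjusted p = 0.117). With the length and GC correction it was 0.33 ± 0.15 (DESeq2 adjusted p = 0.331).

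**Figure D3:**
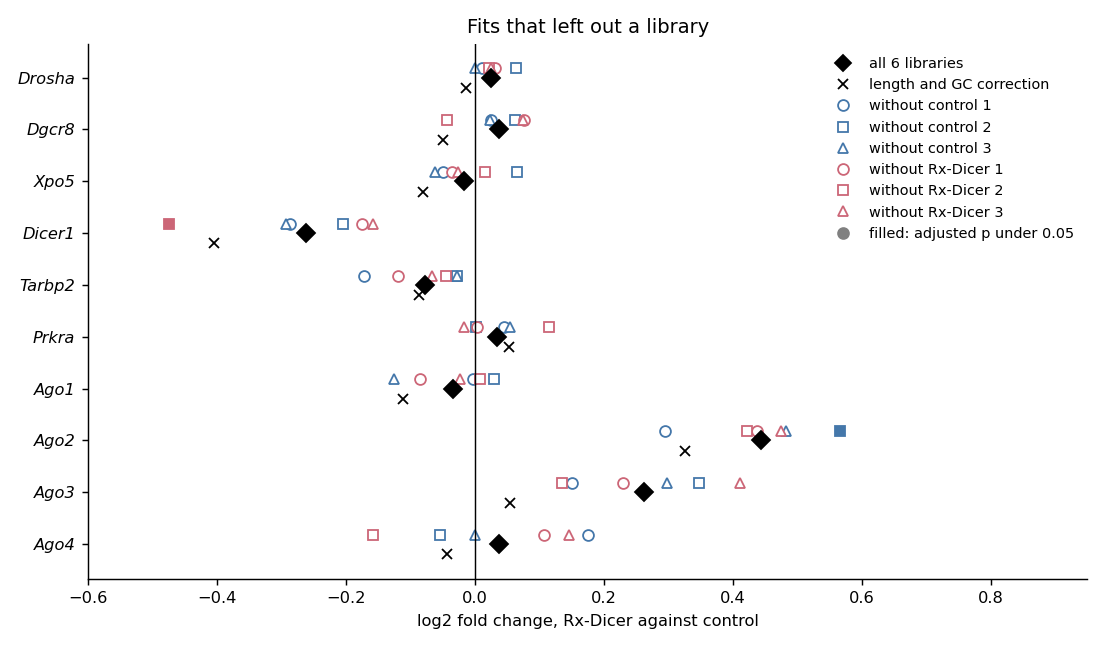
Log2 fold change of each member, Rx-Dicer against control, with all 6 libraries (diamonds), with a length and GC correction (crosses) and with each library left out (blue, a control left out; red, an Rx-Dicer library left out). Filled symbols have a DESeq2 adjusted p under 0.05. Dicer1 passes without Rx-Dicer 2 (-0.47) and Ago2 without control 2 (0.57), and the values of Drosha stay between 0.00063 and 0.064 as libraries are left out.

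The 3 other Argonaute genes lie side by side on chromosome 4, all on the minus strand, with 5455 bases between Ago3 and Ago1 and 20957 between Ago1 and Ago4. Ago1 (ENSMUSG00000041530, chr4:126435012-126468583) had 16885, 17534 and 14043 normalised counts in controls, against 16826, 14973 and 15535 in Rx-Dicer. The Rx-Dicer values fell inside the control range. The log2 fold change of Ago1 was -0.034 ± 0.13 (n = 3 per genotype; DESeq2 adjusted p = 0.971).

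Ago3 (ENSMUSG00000028842, chr4:126331704-126429556) had 813, 1080 and 1017 in controls, against 1214, 1370 and 910 in Rx-Dicer. Rx-Dicer 1 and Rx-Dicer 2 were above all controls, and Rx-Dicer 3 was between them. For Ago3 the log2 fold change was 0.26 ± 0.18 (n = 3 per genotype; DESeq2 adjusted p = 0.624), and 0.055 with the length and GC correction. It was 0.15 without control 1, 0.13 without Rx-Dicer 2 and 0.41 without Rx-Dicer 3. Ago4 (ENSMUSG00000042500, chr4:126489541-126533472) had 507, 371 and 404 in controls, against 394, 552 and 369 in Rx-Dicer. The groups overlapped on both sides. Its log2 fold change was 0.037 ± 0.21 (n = 3 per genotype; DESeq2 adjusted p = 0.983), with the widest interval of the members on the log2 scale, -0.37 to 0.45.

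Levels were compared between genes as normalised counts per kb of exon. In controls Ago1 had the highest level, 1989 ± 229 (SD, n = 3), followed by Drosha (1409 ± 64.6), Prkra (1161 ± 45.2), Xpo5 (1043 ± 100.0) and Ago2 (623 ± 121). Below them came Tarbp2 (480 ± 55.5), Dicer1 (392 ± 26.2), Dgcr8 (371 ± 11.1), Ago4 (61.5 ± 10.2) and Ago3 (58.5 ± 8.40). The ranges of Prkra and Xpo5, of Ago2 and Tarbp2, of Tarbp2 and Dicer1, of Dicer1 and Dgcr8, and of Ago4 and Ago3 overlapped, so those neighbours in the order did not differ beyond their spread. In Rx-Dicer the level of Ago2 was 848 ± 34.8 and that of Dicer1 327 ± 79.1. The order rests on the length used: by the longest transcript in place of all exons, Ago2 moved from rank 5 to rank 8 in controls.

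Of the sum of the 4 Argonaute levels per kb, Ago1 made up 72.7% ± 4.19 in controls (SD, n = 3) and 66.4% ± 2.20 in Rx-Dicer. Ago2 made up 18.2, 24.1 and 26.2% in controls, against 27.9, 30.5 and 28.6% in Rx-Dicer. The groups did not overlap, and no test was made of these shares, which share the counts of the Ago2 comparison. Ago3 and Ago4 each made up between 1.78 and 2.87% in every library. The sum of the 4 was 2733 ± 251 normalised counts per kb in controls and 2924 ± 116 in Rx-Dicer. The groups overlapped, with Rx-Dicer 1 (3054.9) above the highest control (3002.5).

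**Figure D4:**
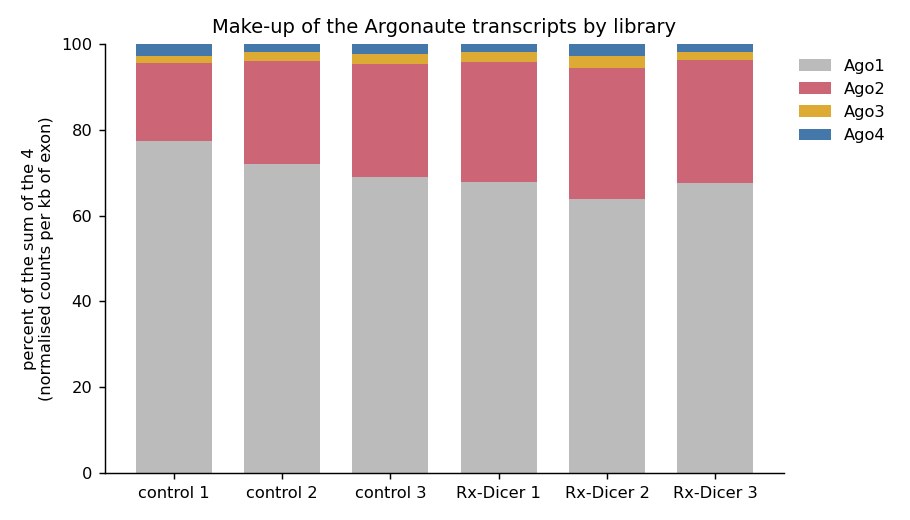
Share of each Argonaute gene in the sum of the 4, in percent of normalised counts per kb of exon, for each library. Ago1 makes up most of each bar, and the Ago2 part is 18.2 to 26.2% in controls and 27.9 to 30.5% in Rx-Dicer.

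The PIWI genes, Argonaute relatives of the germline that bind piRNAs, were at or near the floor of 3 counts. Raw counts were 0 to 4 for Piwil1, 1 to 13 for Piwil2 and 1 to 3 for Piwil4 in all 6 libraries, too few for a test.

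The wider pathway was read from a list of 49 further genes, all of them tested. Of these, 4 were called higher and 0 lower, against 1.75% and 1.18% of all genes, and the median log2 fold change was 0.016. The list was chosen with earlier results of these data known and holds Lin28a, Lin28b and Trim71, described as let-7 targets. Its count of called genes is thus no independent comparison with all genes. None of the 14 Microprocessor cofactors was called, with log2 fold changes between -0.16 (Ilf2) and 0.067 (Ddx17, an RNA helicase of the complex). None of the 4 cofactors of RAN-driven export was called, and all 4 were below 0. The lowest was Rangap1, which drives GTP hydrolysis by RAN, with 14214, 18080 and 16854 normalised counts in controls, against 13698, 13431 and 13629 in Rx-Dicer. Every Rx-Dicer value of Rangap1 lay below every control, as was so for 10.7% of all genes tested. Its log2 fold change of -0.27 ± 0.12 did not pass (n = 3 per genotype; DESeq2 adjusted p = 0.287). It passed only without control 1 (-0.36, DESeq2 adjusted p = 0.00763), in 1 of 16 alternative fits. None of the 3 double-stranded RNA-binding relatives of Tarbp2 and Prkra was called.

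The called genes were in the other lists. Among 12 genes of precursor control and turnover, Lin28a and Lin28b were called higher. Lin28a had 397, 706 and 715 normalised counts in controls, against 3263, 3365 and 4675 in Rx-Dicer. The groups were far apart, and the log2 fold change was 2.63 ± 0.22 (n = 3 per genotype; DESeq2 adjusted p = 3.73e-29). Lin28b had 941, 1505 and 1553 in controls, against 2221, 2644 and 2728 in Rx-Dicer, a log2 fold change of 0.92 ± 0.19 (n = 3 per genotype; DESeq2 adjusted p = 2.79e-04). Over the 49 pathway genes, 9 had Rx-Dicer values above all controls, as did 8.55% of all genes tested. Of the 9, 6 were among these 12 genes, 3 among the 16 of Argonaute loading and stability, and 0 in the remaining lists. Besides the called pair, the 6 were the nuclease genes Zc3h12a (log2 fold change 0.83, at 13.4 to 39.9 normalised counts), Xrn1 (0.22) and Eri1 (0.22) and the nucleotidyltransferase gene Tent2 (0.27). None of these 4 passed.

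Among 16 genes of Argonaute loading and stability, Trim71 and Mov10 were called higher. Trim71, a ubiquitin ligase and RNA-binding protein of early embryos, had 352, 739 and 839 in controls, against 1998, 2277 and 2511 in Rx-Dicer. Trim71 rose by a log2 fold change of 1.81 ± 0.25 (n = 3 per genotype; DESeq2 adjusted p = 4.87e-10). Mov10, an RNA helicase found with Argonautes, had 730, 625 and 871 in controls, against 1190, 1085 and 1074 in Rx-Dicer. Mov10 rose by a log2 fold change of 0.59 ± 0.16 (n = 3 per genotype; DESeq2 adjusted p = 0.0142). The chaperones of the list, such as Hsp90aa1 and Hspa8, which hold Argonautes open for loading, were at 0.15 and 0.10 and were not called.

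Of these 4, edgeR's test called only Lin28a (edgeR adjusted p = 0.0240), with 0.136 for Lin28b, 0.0773 for Trim71 and 0.175 for Mov10. Without Rx-Dicer 2 all 4 were called, with log2 fold changes of 2.71, 0.90, 1.81 and 0.61. Mov10 was not called without control 1 (0.58, DESeq2 adjusted p = 0.0537), control 2 (0.48, DESeq2 adjusted p = 0.103) or Rx-Dicer 1 (0.54, DESeq2 adjusted p = 0.0636).

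**Figure D5:**
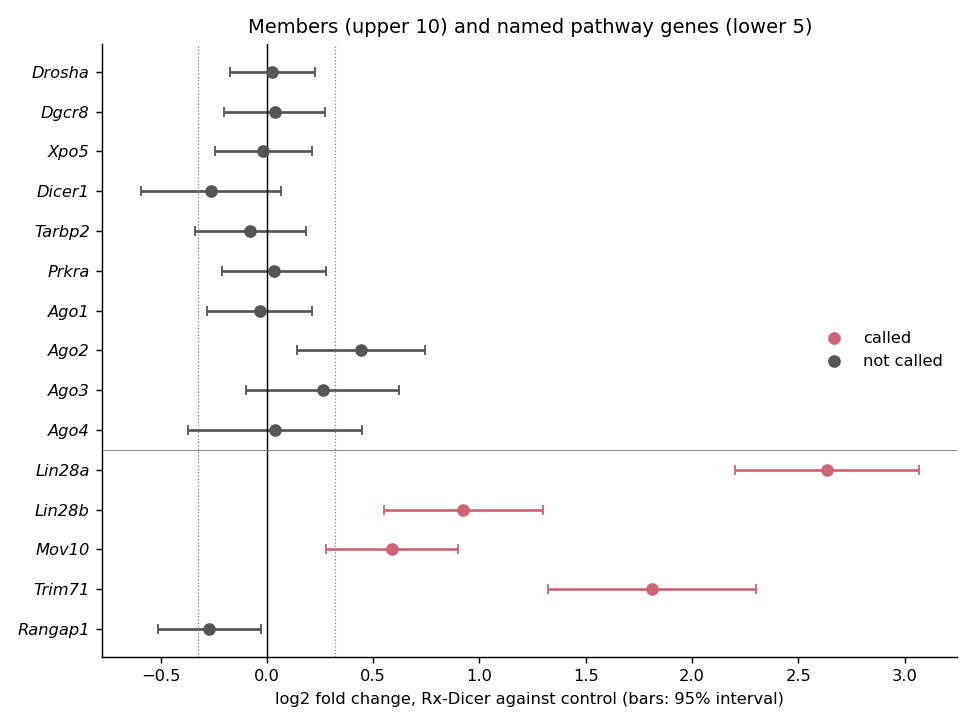
Log2 fold change, Rx-Dicer against control, with 95% intervals, for the 10 members and 5 named pathway genes. Dotted lines mark 0.32 on either side of 0, the smallest change that could be called. The members lie between -0.26 and 0.44 and none was called, while Lin28a (2.63), Trim71 (1.81), Lin28b (0.92) and Mov10 (0.59) were called higher.

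The let-7 words of these genes are shown for comparison with those of Dicer1, Ago2 and Ago3. Lin28a held 2 of the 8-base word in its 3′ UTR, Trim71 held 4, Lin28b held 1 with 3 more of 7 bases there, and Mov10 held 1 in its coding sequence.
Lin28a 3′ UTR, chr4:134005189-134005196, minus strand: gcctgttgaaCTACCTCAtttt
Lin28b 3′ UTR, chr10:45381022-45381029, minus strand: ggcgggaagtCTACCTCAtgca
Trim71 3′ UTR, chr9:114512472-114512479, minus strand: tgcctaagtcCTACCTCAgctt
Mov10 coding sequence, chr3:104795326-104795333, minus strand: ctcagcccctCTACCTCAgggc

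Of the 49 pathway genes, 10 held a word of at least 7 bases in the coding sequence or 3′ UTR. Of these 10, 8 had a log2 fold change above 0, from 0.025 (Dhx9) to 2.63 (Lin28a), and 2 below, as against 19 above and 20 below among the 39 without a word. Of the 5 members with a word, 2 were above 0, Ago2 (0.44) and Ago3 (0.26), and 3 below, Dicer1 (-0.26), Tarbp2 (-0.077) and Xpo5 (-0.016). Of the 5 members without a word, 4 were above 0 and 1 below, all near 0, from -0.034 (Ago1) to 0.037 (Ago4). Each of these 5, and Xpo5 as well, changed sign in 1 to 5 of the 16 alternative fits, so their signs give no direction. Of all 17127 genes tested, 8538 were above 0 and 8589 below. The direction over all genes that hold a word was not counted. The 10 pathway genes with a word include Lin28a, Lin28b and Trim71, which were listed as described let-7 targets. These counts are a description and no test was made of them.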

How the data were processed

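Raw counts of reads on each gene were deposited. The authors trimmed reads with Trim Galore, aligned them to GRCm38 with HISAT2 and counted them per gene with HTSeq on the reverse strand (Trim Galore 0.6.5 and HTSeq 0.12.4 per the submitters' processing notes). Reads on more than 1 gene or place were tallied apart, 24.9 to 31.0% of reads with the others off genes. The 2 files of each sample were repeat runs (chi-square per degree of freedom 1.11 to 1.47, against 20.5 to 29.6 between libraries) and were summed, so n was 3 per genotype. Intervals and floors cover counting error or sample spread only, since reads carry no molecular identifiers.

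As in the study, DESeq2 (version 1.42.0, in R 4.3.3) was used to compare genotypes over all genes by the Wald test, with Benjamini-Hochberg adjustment, and with edgeR's quasi-likelihood test (edgeR 4.0.16) as an alternative. A call needed an adjusted p under 0.05 with a log2 fold change beyond 0.32 in size. Other alternatives were other scalings, filters and thresholds, each file alone, a replicate block, a length and GC correction and each library left out.

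Members and lists were chosen with earlier results of these data known. Named were all 10 members, the 3 PIWI genes, the called pathway genes filled up to 5 by adjusted p, and the 5 genes most like Dicer1 with a mean of at least 100 normalised counts (log2 with a pseudocount of 0.5). Other pathway genes and the called markers were named after their values were seen. Protein sequences were not used here.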

Additional observations from a re-analysis of the deposited data

Results flagged for a closer look

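Reads that aligned outside annotated genes were not part of any comparison. Their share of the reads placed on or off genes had a median of 10.67% in the Rx-Dicer libraries, above the highest control at 10.1%. Per library it was 10.1, 8.34 and 8.73% in controls, against 9.24, 13.5 and 10.7% in Rx-Dicer, so the groups overlapped, and the difference was not tested. The highest share was in Rx-Dicer 2, in which Dicer1 was level with controls.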

How the results depend on the processing

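The count of all genes called was 502, against 8 with edgeR, 322 without independent filtering, 314 with the replicate block, 296 with both the block and a correction for length and GC, and 286 to 637 with a library left out. Members called were 0, against 1 at an adjusted p under 0.1 and 0 to 1 with a library left out. Pathway genes called were 4, against 1 with edgeR and 3 to 4 with a library left out. Shared replicate numbers were not treated as pairs. The r of same-numbered deviations was 0.17, 0.033 and -0.13, against -0.17 to 0.16 between other numbers. The paper compared mutants with control littermates, and these r values cannot tell whether same-numbered samples shared a litter. The replicate block changed no call of a member or of the 4 pathway genes, with Dicer1 at -0.29 and Ago2 at 0.46.

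Dicer1 kept its sign in all 16 fits and ranged from -0.47 to -0.16 with a library left out, Ago2 from 0.30 to 0.57, Ago3 from 0.13 to 0.41 and Tarbp2 from -0.17 to -0.028. The direction of members near 0 turned. The length and GC correction, which moved the median of all genes to -0.049, gave -0.014 for Drosha, -0.049 for Dgcr8 and -0.043 for Ago4, or -0.015, -0.052 and -0.055 with the replicate block. Total counts gave 0.0037 for Xpo5. With a library left out, Dgcr8 ranged from -0.043 (without Rx-Dicer 2) to 0.077, Xpo5 from -0.062 to 0.066 (without control 2, or 0.016 without Rx-Dicer 2), Prkra from -0.017 (without Rx-Dicer 3) to 0.12, Ago1 from -0.12 to 0.029 (without control 2, or 0.0073 without Rx-Dicer 2) and Ago4 from -0.16 (without Rx-Dicer 2) to 0.18, with -0.054 without control 2 and -0.00021 without control 3. By the longest transcript the mean Ago2 share was 21.2% in controls and 27.1% in Rx-Dicer, against 22.8% and 29.0% by all exons. The cause of these changes was not tested.

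Between 2 runs of a library the CPM of Ago4, the member with fewest counts, differed by -24.1 to 4.57%, against -2.30 to 2.71% for Drosha. At 3 libraries per genotype the upper ends of the intervals ran from 1.05 times the control level for Dicer1 to 1.67 for Ago2 and the lower ends from 0.664 for Dicer1 to 1.10 for Ago2.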
